A study of Mus musculus with 12 samples.

Results

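The genes described are the core splicing factors: SR proteins, hnRNP proteins, subunits of SF3A and SF3B, Sm and other snRNP proteins, and U2AF. They were taken as every gene of the deposited expression table whose symbol starts with Srsf and a digit, Hnrnp, Sf3a or Sf3b and a digit, Snrp or U2af. This gave 56 of the 17203 genes, made up of 12 SR, 20 hnRNP, 9 SF3A and SF3B, 12 Sm and snRNP, and 3 U2AF genes. Of these, 54 reached 10 CPM (read counts per 1e6 assigned reads) in at least 3 of the 12 libraries and were tested along with 9826 genes in all. The untested members were Srsf12, an SR gene at 3.08 ± 0.400 CPM in unstimulated cells (SD, n = 3), and Snrpg, an Sm gene at 6.62 ± 0.666 CPM. Srsf3-ps by its symbol and Snrpert by the GENCODE annotation are pseudogenes that can share reads with Srsf3 and Snrpe, so all these values are uncertain between the copies. Srsf3-ps is included in the counts of SR genes below, and Snrpert in those of Sm and snRNP genes.

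RNA was sequenced from primary CD4+ T cells, also called helper T cells, isolated from C57BL/6 mice, in 4 groups of 3 libraries. Unstimulated cells were freshly isolated and not activated. The deposited names of these libraries call them naive CD4, a word absent from the names of the other groups. The CD3 group was activated with plate-bound anti-CD3, an antibody to the T cell receptor complex, and the CD3_CD28 group with plate-bound anti-CD3 and soluble anti-CD28, an antibody to a costimulatory receptor. The CD3_CD28_ICOS group received soluble anti-CD3, anti-CD28 and anti-ICOS, the last an antibody to another costimulatory receptor. All activations lasted 72 h. Stimulation and 72 h of culture cannot be told apart against the fresh cells, and anti-ICOS cannot be told apart from the soluble format of anti-CD3. Nothing in the labels ties the replicates to separate mice or cultures, and the p-values therefore reflect the spread of the libraries at hand, part of which may be technical.

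Splicing is carried out by small nuclear ribonucleoproteins (snRNPs), most of them built on a ring of Sm proteins. U2AF binds the end of the intron, and SF3A and SF3B hold the U2 snRNP on the branch site. SR proteins bind exons and mostly favour their inclusion, whereas hnRNP proteins often favour skipping. In T cells, hnRNP L-like (Hnrnpll) is known as a regulator of the exons of Ptprc, which encodes CD45. The values here are levels of whole genes and say nothing of which exons were used.

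Estimated depths were 11.4 to 37.5 (in units of 1e6 reads) per library, the lowest being CD3 replicate 1, and 1 read was worth 0.0267 to 0.0879 CPM. Pairs of libraries within a group correlated at 0.968 to 0.993 across genes. The ribosomal RNA gene CT010467.1 stood at 118000 CPM in CD3_CD28 replicate 1 against 12600 to 32000 CPM in the other 11 libraries, and Fos, an early response gene, stood at 70.7, 30.9 and 1270 CPM in the unstimulated libraries. The 6 CD4 T cell markers had summed levels between 4100 and 4480 CPM in unstimulated, between 2480 and 2910 in CD3, between 2500 and 2950 in CD3_CD28 and between 3730 and 4090 in CD3_CD28_ICOS. Markers of other tissues were found in the fresh cells: pancreatic exocrine markers summed to 275 to 1460 CPM in the unstimulated libraries and at most 1.67 CPM elsewhere, the 6 myeloid markers to 135 to 376 and at most 8.73 CPM, and the 5 erythroid and platelet markers to 74.7 to 145 and at most 3.41 CPM. All tested markers of these 3 lists were lower in each stimulated group than in unstimulated cells, and their part in the comparisons with fresh cells was not tested. The 6 comparisons share groups and are therefore not independent of each other.

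Promoters of 3 members with large changes are shown because the members differed in direction between CD3_CD28 and unstimulated, with bases as RefSeq gives them for GRCm38.p6, each ending at the base before the start that RefSeq annotates, which for Hnrnpa1 lies upstream of the start in the deposited table. Srsf1 (chr11:88047123-88047372, plus strand) and Hnrnpd (chr5:99978939-99979188, minus strand) were lowest in CD3_CD28, and Hnrnpa1 (chr15:103240147-103240396, plus strand) had its highest mean there. Capitals mark matches on either strand to CACGTG, the E-box bound by Myc and related factors, to CCGGAAG, an ETS motif, or to CCAAT.
Srsf1: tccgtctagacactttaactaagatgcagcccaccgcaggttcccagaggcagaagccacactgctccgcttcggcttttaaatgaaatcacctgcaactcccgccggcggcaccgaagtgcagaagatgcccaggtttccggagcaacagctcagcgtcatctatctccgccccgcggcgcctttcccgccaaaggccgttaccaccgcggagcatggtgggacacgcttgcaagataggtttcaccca
Hnrnpd: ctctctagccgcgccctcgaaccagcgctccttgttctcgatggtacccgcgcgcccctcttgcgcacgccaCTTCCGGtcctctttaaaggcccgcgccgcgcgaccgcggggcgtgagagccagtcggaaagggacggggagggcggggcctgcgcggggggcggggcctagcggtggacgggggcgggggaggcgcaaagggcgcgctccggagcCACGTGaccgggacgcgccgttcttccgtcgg
Hnrnpa1: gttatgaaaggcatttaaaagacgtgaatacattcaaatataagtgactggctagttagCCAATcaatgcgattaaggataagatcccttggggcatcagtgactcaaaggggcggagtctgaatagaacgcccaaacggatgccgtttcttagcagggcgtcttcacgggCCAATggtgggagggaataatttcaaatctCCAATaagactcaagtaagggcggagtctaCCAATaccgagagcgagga
The printed Srsf1 promoter held none of these motifs, that of Hnrnpd held 1 E-box and 1 ETS motif, and that of Hnrnpa1 held 4 CCAAT motifs. Windows of 250 bases before to 50 after the start were found for 47 of the 56 members. CCGGAAG was present in 16 of the 47 (34%) against 9.93% of 27025 genes with RefSeq promoters, whether or not they were expressed here. CACGTG was present in 6 (12.8% against 8.09%), and CCAAT in 23 (48.9% against 41.1%), Srsf1 among them with a match that runs past the end of the printed bases. A gene counted as having a motif if the window of any of its annotated starts did. The shares among the 9826 tested genes, nearer in expression to the members, were not computed. None of these motifs contains another, and a match is a description of letters, not a binding site.

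Splicing factor transcripts took the largest share of reads in CD3 and the smallest in CD3_CD28. The 56 members summed to 9803, 10120 and 10640 CPM in the unstimulated libraries, 12660, 13550 and 13470 in CD3, 7093, 7999 and 8382 in CD3_CD28, and 11070, 8990 and 9558 in CD3_CD28_ICOS. The CD3 libraries lay above and the CD3_CD28 libraries below all the others, and CD3_CD28_ICOS overlapped with unstimulated. The SR genes summed to 1057 ± 46.7 CPM in unstimulated, 1759 ± 154 in CD3, 722 ± 87.0 in CD3_CD28 and 1163 ± 182 in CD3_CD28_ICOS. The hnRNP genes summed to 6628 ± 280, 8402 ± 212, 4912 ± 424 and 6305 ± 739 CPM in the same order. The Sm and snRNP genes departed from this order, with 425 ± 18.1, 606 ± 22.5, 411 ± 36.0 and 386 ± 55.8 CPM. In bulk samples, fewer cells of a type and less RNA per cell cannot be told apart.

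**Figure D1:**
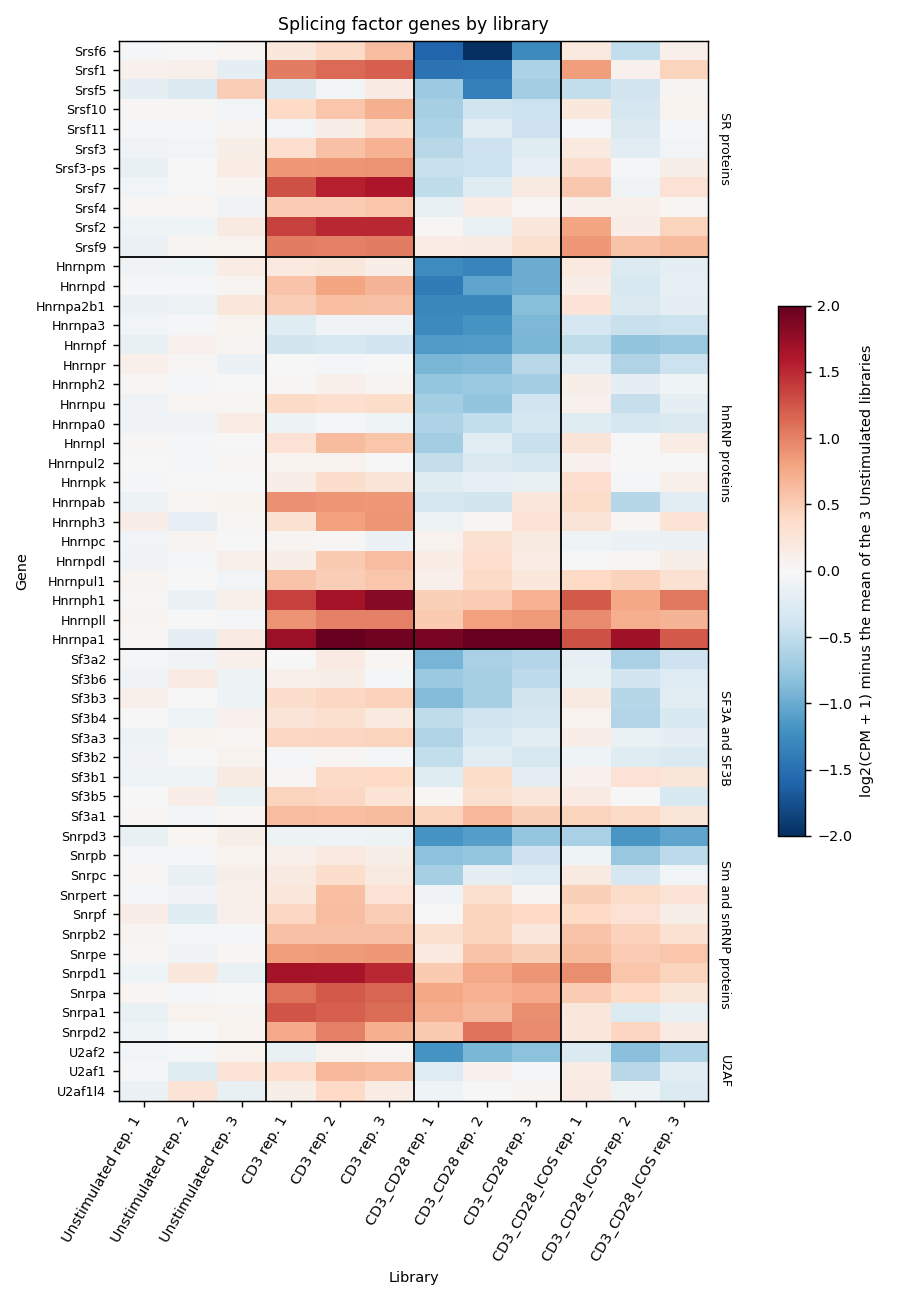
The heat map shows log2(CPM + 1) of the 54 tested members (rows, by class) in each of the 12 libraries (columns) minus the mean of the 3 Unstimulated libraries, red above and blue below. Most rows are reddest in CD3 and bluest in CD3_CD28, whereas Hnrnpa1 is red in all 9 stimulated libraries.

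The order of the 3 stimulated means was CD3, then CD3_CD28_ICOS, then CD3_CD28 in 41 of the 54 members (75.9%), an order that 25% of the 9826 genes had. All 3 CD3 libraries lay above the other 9 in 27 members, where 17.3% of all genes did so, and all 3 CD3_CD28 libraries lay below the other 9 in 18 members, where 22.9% did so. Hnrnpc was the 1 member whose CD3_CD28 libraries lay above the other 9, with 270.5, 317 and 290 CPM against at most 267 CPM elsewhere, a position that 13.1% of all genes had. No member had its 3 CD3_CD28_ICOS libraries above or below the other 9, where 6.06% and 3.12% of all genes had. Among the 9 stimulated libraries, 48 members differed between groups in an F test by limma at an adjusted p under 0.05, against a background of 80.7%. The 6 that did not pass were Hnrnpll, Sf3b1, Snrpb2, Snrpf, the pseudogene Snrpert and U2af1l4, a paralog of U2af1.

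With anti-CD3 alone, most members rose over fresh cells. In CD3 against unstimulated, 33 of the 54 members were higher and 1, Hnrnpf, was lower at a limma adjusted p under 0.05, against backgrounds of 43.6% higher and 26.3% lower. The median log2 fold change of the members was 0.43 and that of all tested genes 0.18, on the log2(CPM + 1) scale, which understates changes of low genes. Of the classes, 8 of 11 SR, 12 of 20 hnRNP, 4 of 9 SF3A and SF3B, 8 of 11 Sm and snRNP and 1 of 3 U2AF genes rose. The U2AF gene was U2af1, which reached the level for testing only through the CD3 libraries. Scaling moves the median of all genes, to -0.07 with quantile normalization and 0.01 with median-of-ratios factors, and the members then split 29 higher and 2 lower, or 26 higher and 4 lower. All tested genes then split 31.7% higher and 38.3% lower, or 36.1% and 35.3%. The authors' deposited table had 20 members higher and 1 lower at a false discovery rate under 0.05. Of the genes with such a rate, 16.9% were higher and 9.16% lower. The 8 proliferation genes tested all rose as well, their summed level going from 332 to 393 CPM up to 4270 to 4780 CPM, and 5 of the 6 CD4 T cell markers were lower. The part of these in the result was not tested.

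Adding anti-CD28 to plate-bound anti-CD3 went with lower levels across all 5 classes. In CD3_CD28 against CD3, 43 of the 54 members (79.6%) fell and 1, Hnrnpc, rose, against backgrounds of 45.7% lower and 18.7% higher. The Hnrnpc call (0.20 ± 0.08, limma adjusted p = 0.0399) held in 15 of 23 settings and was absent without CD3 replicate 2 or 3, CD3_CD28 replicate 2 or 3, or CD3_CD28_ICOS replicate 3. Every tested SR gene fell, 11 of 11 with the pseudogene Srsf3-ps included, with a median log2 fold change of -1.05. So did 16 of 20 hnRNP genes (median -0.74), 6 of 9 SF3A and SF3B genes, 8 of 11 Sm and snRNP genes and 2 of 3 U2AF genes. Among these, Snrpc and U2af1 reached the level for testing only through the CD3 libraries. The median was -0.69 for the members and -0.24 for all genes. The latter became -0.03 under either other scaling, where the members split 38 lower and 1 higher (quantile; all genes 31.6% and 29.3%) or 35 lower and 2 higher (median of ratios; 31.5% and 29.6%). With the ribosomal RNA gene removed before scaling, 42 were lower and 1 higher (42.6% and 21.9%). At a log2 change of at least 1, 12 members were called lower and 0 higher, against 9.96% and 4.82% of all genes. In the authors' deposited table, 34 members were higher in CD3 than in CD3_CD28 and 0 lower at a false discovery rate under 0.05, where 11.8% and 5.14% of the genes with such a rate were.

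Markers of other cells moved alongside. Summed levels of the 5 B cell markers ran between 214 and 456 CPM in CD3, between 6.40 and 8.53 in CD3_CD28 and between 157 and 451 in CD3_CD28_ICOS, with all 5 lower in CD3_CD28 than in CD3. Cd8a, which marks CD8 T cells, stood at 11.1, 7.55 and 9.49 CPM in CD3, 1.71, 1.52 and 1.49 in CD3_CD28, and 46.6, 20.9 and 18.2 in CD3_CD28_ICOS, without overlap. All 4 CD8 and NK markers summed to 23.8 to 28.5, 22.7 to 29.7 and 38.7 to 77.1 CPM in these groups. Of the 6 CD4 T cell markers, 4 were lower and 2 higher in CD3_CD28 than in CD3. The 8 proliferation genes summed to 1840 to 2980 CPM in CD3_CD28, below CD3, and all 8 were lower. The part of these cells and of proliferation in the result was not tested.

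The group that received soluble anti-CD3, anti-CD28 and anti-ICOS lay between the plate-bound groups for most members. Against CD3_CD28, 27 members were higher and 5 lower, with backgrounds of 38.5% and 24.5%. They included 10 of 11 SR and 12 of 20 hnRNP genes but 0 of 11 Sm and snRNP genes (0 also at an unadjusted limma p under 0.05), of which Snrpa, Snrpa1 and Snrpd2 fell. The authors' deposited table had 12 members higher and 2 lower at a false discovery rate under 0.05. Of the genes with such a rate, 12.6% were higher and 6.89% lower. Leaving out CD3_CD28 replicate 1 or CD3_CD28_ICOS replicate 1 each lowered the 27 to 18. Quantile normalization gave 19 higher and 7 lower (all genes 32.8% and 31.7%), and median-of-ratios factors 15 higher and 8 lower (31.4% and 33.2%). With the ribosomal RNA gene removed before scaling, 22 were higher and 7 lower (36% and 28.3%). The 5 B cell markers were all higher too, as were Cd8a and 5 of the 6 CD4 T cell markers, while 0 of the 8 proliferation genes were called in either direction. The part of these in the result was not tested.

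Against CD3, 35 members (64.8%) were lower in CD3_CD28_ICOS and 0 higher by limma at an adjusted p under 0.05, with backgrounds of 28.7% and 18.9%. At an unadjusted p under 0.05 the higher count was 0 too. The authors' deposited table had 12 members lower, fewer than the 35 here, and 0 higher at a false discovery rate under 0.05. Of the genes with such a rate, 4.6% were lower and 4.07% higher. No B cell marker was called in this comparison, both tested CD8 markers and 5 of the 6 CD4 T cell markers were higher, and 7 of the 8 proliferation genes were lower. Their part in the result was not tested. Against unstimulated, 12 members were higher and 9 lower in CD3_CD28_ICOS, against 35.6% and 23.7%. Without CD3_CD28_ICOS replicate 1 the lower members numbered 14, and without replicate 2 they numbered 6. Under quantile normalization the split was 10 higher and 14 lower (all genes 27.8% and 35.5%), and under median-of-ratios factors 10 and 13 (31.5% and 32.6%). CD3_CD28 against unstimulated gave 12 higher and 27 lower members, with backgrounds of 36.1% and 39.1%. With the ribosomal RNA gene removed before scaling, 15 were higher and 27 lower (38.9% and 37.6%). No SR gene was among the 12 (0 also at an unadjusted limma p under 0.05), and the 12 held 6 of the 11 Sm and snRNP genes, 5 hnRNP genes and Sf3a1.

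**Figure D2:**
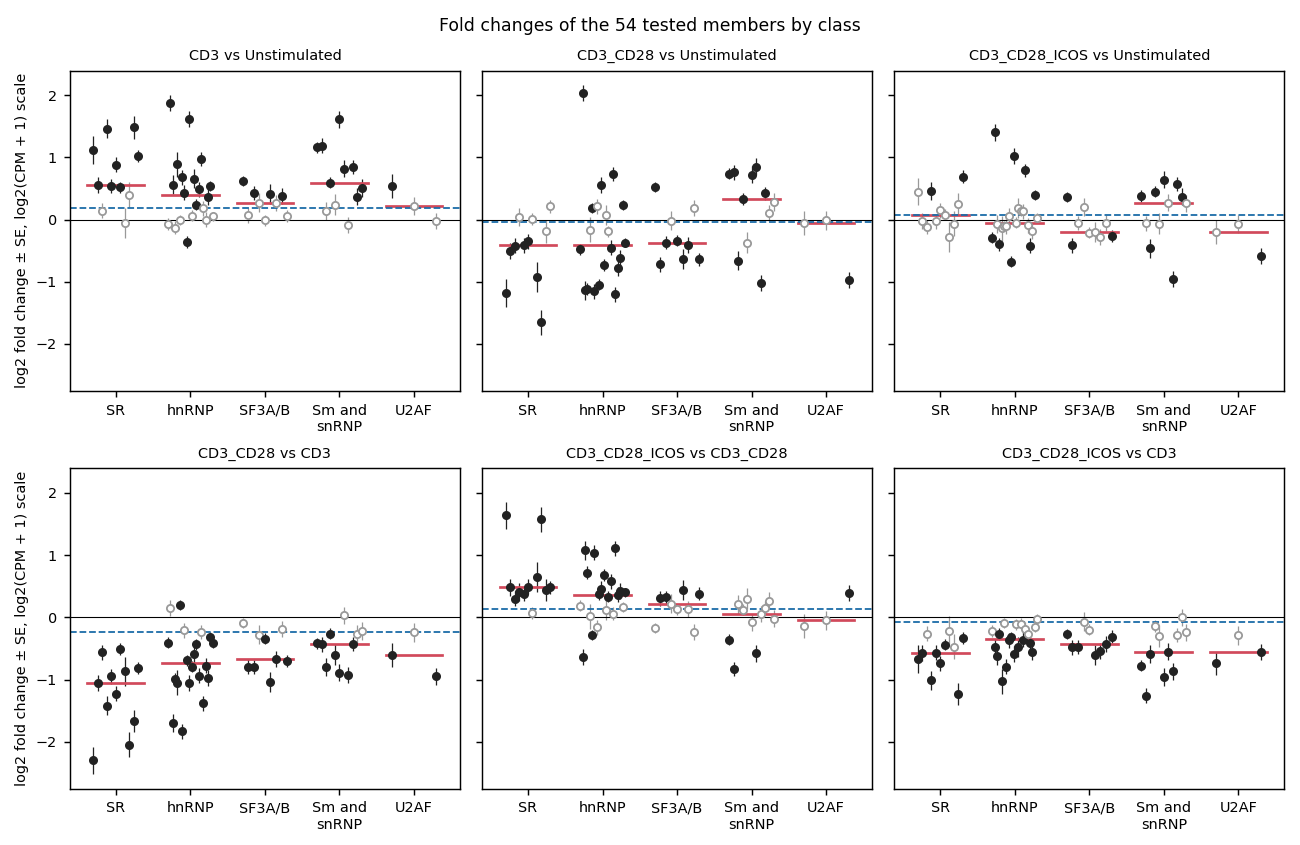
Each panel plots the log2 fold change ± SE of the 54 tested members in 1 comparison, by class, with filled points called at a limma adjusted p under 0.05, red lines at class medians and a dashed blue line at the median of all tested genes. In CD3_CD28 against CD3 all 11 SR genes are filled and below 0, and in CD3_CD28_ICOS against CD3_CD28 no Sm or snRNP gene is called above 0.

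Among SR proteins, Srsf1 changed most between CD3_CD28 and either other stimulated group. Srsf1, the prototype SR protein (chromosome 11, 88047373 to 88053755 of mm10, plus strand, protein-coding), stood at 175, 178 and 146 CPM in unstimulated, 337, 366.5 and 383 in CD3, 58.8, 60.3 and 107 in CD3_CD28, and 295, 176.5 and 225.5 in CD3_CD28_ICOS. CD3 was above and CD3_CD28 below all other libraries, and CD3_CD28_ICOS replicate 2 fell among the unstimulated values. The log2 fold change was 1.12 ± 0.22 for CD3 against unstimulated (limma adjusted p = 6e-04), -2.30 ± 0.22 for CD3_CD28 against CD3 (adjusted p = 4.33e-06) and 1.64 ± 0.22 for CD3_CD28_ICOS against CD3_CD28 (adjusted p = 3.97e-05).

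Srsf6, which encodes an SR protein of the same domain layout (chromosome 2, 162931528 to 162937121, plus strand), stood at 148, 154 and 156 CPM in unstimulated, 177, 198 and 234 in CD3, 50.1, 35.5 and 62.2 in CD3_CD28, and 174, 108 and 163 in CD3_CD28_ICOS. CD3_CD28 lay below the other groups, while the difference of CD3 from unstimulated did not pass (0.40 ± 0.20, limma adjusted p = 0.0917). It fell by 2.05 ± 0.20 on the log2 scale in CD3_CD28 against CD3 (adjusted p = 4.53e-06), and rose by 1.58 ± 0.20 in CD3_CD28_ICOS against CD3_CD28 (adjusted p = 2.33e-05).

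Srsf2 and Srsf7 had another course, high in CD3 and back near the fresh level in CD3_CD28. Srsf2 (chromosome 11, 116849901 to 116853094, minus strand), whose product binds exonic enhancers, stood at 90.0, 90.6 and 108.5 CPM in unstimulated, 249, 275 and 276 in CD3, 98.1, 87.3 and 113 in CD3_CD28, and 167, 105.5 and 131 in CD3_CD28_ICOS. Its CD3_CD28 and unstimulated libraries overlapped (0.04 ± 0.15, limma adjusted p = 0.803), while CD3 exceeded unstimulated by 1.46 ± 0.15 (adjusted p = 8.78e-07). Srsf7, an SR protein with a zinc knuckle (chromosome 17, 80200080 to 80207307, minus strand), went from 53.2 to 57.2 CPM in unstimulated to 135 to 171 in CD3, a rise of 1.48 ± 0.18 (adjusted p = 6.54e-06). It ranged from 38.5 to 62.9 CPM in CD3_CD28 and from 52.4 to 81.1 in CD3_CD28_ICOS, 2 groups that overlapped, and the difference between them of 0.44 ± 0.18 (adjusted p = 0.0426) was called in 9 of 23 settings.

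Of the other SR genes, Srsf5 did not pass between CD3 and unstimulated (-0.06 ± 0.24, limma adjusted p = 0.838). Its unstimulated libraries held 107, 99.9 and 172 CPM, the high one being the replicate with high Fos, and the link between these was not tested. Srsf9, a close relative of Srsf1, rose by 1.02 ± 0.10 in CD3 (adjusted p = 5.69e-07) and was 0.69 ± 0.10 above unstimulated in CD3_CD28_ICOS (adjusted p = 3.97e-05). Srsf3, known to act in export of mRNA as well as splicing, and Srsf10, known as a splicing repressor when dephosphorylated, fell in CD3_CD28 against CD3 by 0.95 ± 0.12 and 1.05 ± 0.13.

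**Figure D3:**
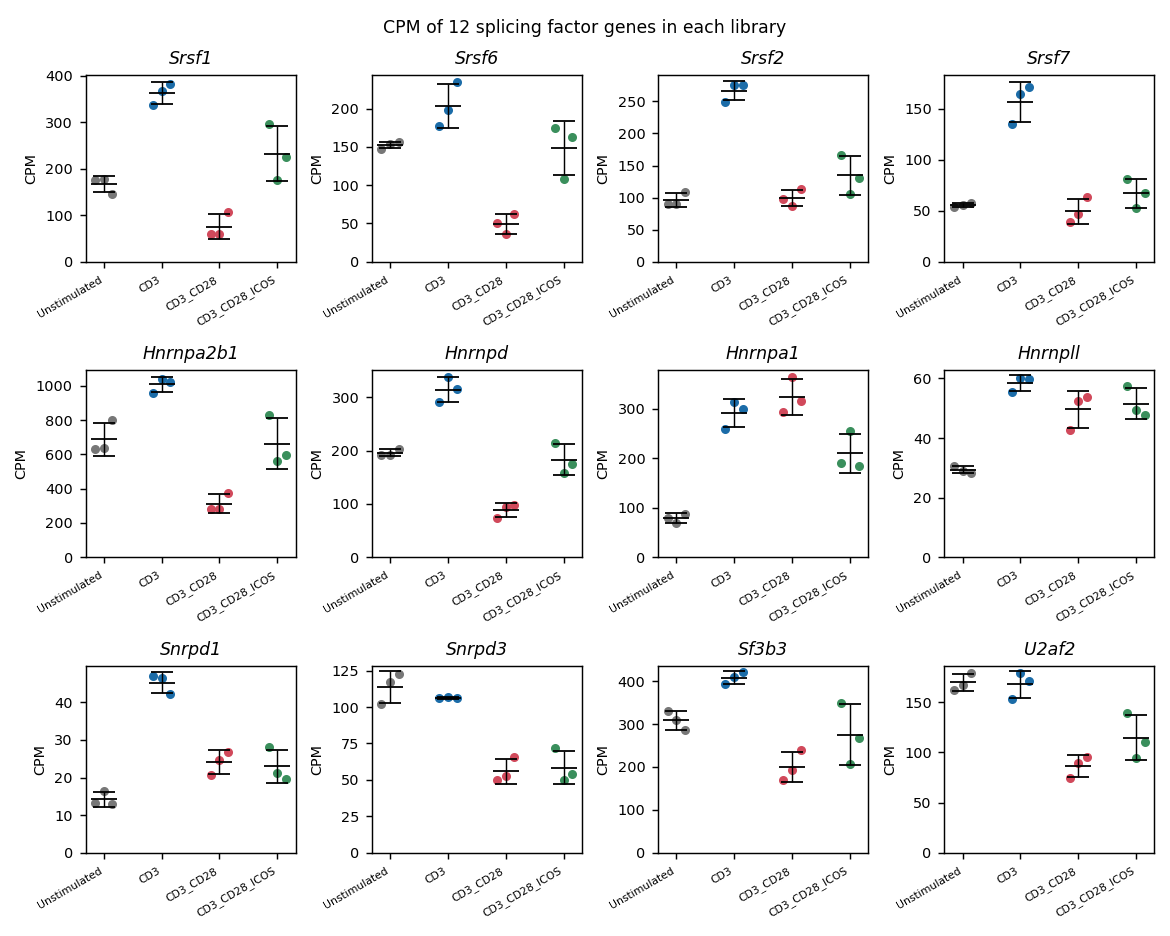
CPM of 12 members in each library (points, in replicate order) with the mean and SD of the 3 libraries of each group (black), axes starting at 0. Srsf1, Srsf6, Hnrnpa2b1 and Hnrnpd are lowest in all 3 CD3_CD28 libraries, whereas Hnrnpa1 and Hnrnpll are lowest in all 3 Unstimulated libraries.

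Among hnRNP genes, Hnrnpa1 stood apart from its paralogs. Hnrnpa1, whose product is known to favour exon skipping (chromosome 15, 103240432 to 103246692, plus strand), stood at 79.7, 68.4 and 88.1 CPM in unstimulated, 260.5, 314.5 and 300 in CD3, 294, 364 and 316 in CD3_CD28, and 191, 255 and 184 in CD3_CD28_ICOS. All 9 stimulated libraries lay above all unstimulated ones, CD3 and CD3_CD28 overlapped, and CD3_CD28_ICOS lay below both. It rose by 1.88 ± 0.13 in CD3 (limma adjusted p = 2.86e-08), 2.03 ± 0.13 in CD3_CD28 (adjusted p = 9.99e-09) and 1.40 ± 0.13 in CD3_CD28_ICOS (adjusted p = 9.66e-07) over unstimulated. The difference between CD3_CD28 and CD3, 0.15 ± 0.13, did not pass (adjusted p = 0.331).

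Hnrnpa2b1, a paralog of Hnrnpa1 whose product binds many nuclear RNAs (chromosome 6, 51460932 to 51469894, minus strand), stood at 629, 638.5 and 800 CPM in unstimulated, 959, 1043 and 1024 in CD3, 280, 281 and 377 in CD3_CD28, and 832, 561 and 599 in CD3_CD28_ICOS. CD3 was above and CD3_CD28 below all other libraries. The change was -1.70 ± 0.15 for CD3_CD28 against CD3 (limma adjusted p = 2.04e-06) and 1.08 ± 0.15 for CD3_CD28_ICOS against CD3_CD28 (adjusted p = 4.93e-05). Hnrnpa3 fell in CD3_CD28 against CD3 too (-0.99 ± 0.10), and Hnrnpa0 did by less (-0.41 ± 0.09).

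Hnrnpd, whose product AUF1 is known to bind AU-rich elements of cytokine mRNAs (chromosome 5, 99955935 to 99978938, minus strand), stood at 192, 192 and 203 CPM in unstimulated, 290.5, 337 and 316 in CD3, 73.2, 94.0 and 97.5 in CD3_CD28, and 214.5, 158.5 and 175 in CD3_CD28_ICOS. It too was above all others in CD3 and below all others in CD3_CD28. It fell by 1.83 ± 0.12 on the log2 scale in CD3_CD28 against CD3 (limma adjusted p = 1.51e-07). Hnrnpm, another regulator of exon choice, fell by 1.38 ± 0.12 (adjusted p = 1.22e-06), and Hnrnpu, a nuclear scaffold protein, fell by 0.98 ± 0.13 (adjusted p = 2.12e-05).

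Hnrnpll, the CD45 regulator named above (chromosome 17, 80029487 to 80062334, minus strand), stood at 30.6, 29.0 and 28.4 CPM in unstimulated, 55.4, 60.2 and 59.9 in CD3, 42.6, 52.6 and 53.9 in CD3_CD28, and 57.6, 49.4 and 47.7 in CD3_CD28_ICOS. All 9 stimulated libraries lay above unstimulated. The rise was 0.97 ± 0.11 in CD3 (limma adjusted p = 2.04e-06), 0.73 ± 0.11 in CD3_CD28 (adjusted p = 2.45e-05) and 0.79 ± 0.11 in CD3_CD28_ICOS (adjusted p = 2.5e-05), and CD3_CD28 did not pass against CD3 (-0.24 ± 0.11, adjusted p = 0.0649). Its paralog Hnrnpl, which binds the same kind of sequence, fell by 0.94 ± 0.12 in that comparison (adjusted p = 2.17e-05). Ptprc itself stood at 2610 ± 238 CPM in unstimulated, 2200 ± 121 in CD3, 1300 ± 66.5 in CD3_CD28 and 2770 ± 87.2 in CD3_CD28_ICOS, as a whole-gene level that does not separate isoforms.

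Hnrnph1 and Hnrnpf, which encode proteins that bind G-rich runs, differed in direction against fresh cells. Hnrnph1 (chromosome 11, 50376990 to 50386528, plus strand) stood at 108, 97.4 and 114 CPM in unstimulated, 274, 340 and 379 in CD3, 149, 151 and 173 in CD3_CD28, and 251, 183 and 223 in CD3_CD28_ICOS. Hnrnpf (chromosome 6, 117900324 to 117925622, plus strand) stood at 1165, 1358 and 1341 CPM in unstimulated, 999.5, 1029 and 981 in CD3, 586, 593 and 684 in CD3_CD28, and 899, 745 and 771 in CD3_CD28_ICOS. Every stimulated library was above the unstimulated ones for Hnrnph1 and below them for Hnrnpf. The changes in CD3 were 1.62 ± 0.13 (limma adjusted p = 1.02e-07) and -0.36 ± 0.09 (adjusted p = 0.0037).

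Ratios of related genes within a library are largely free of how libraries are scaled, and show unequal change of the members of a pair. The log2 ratio of CPM + 1 was computed for 19 pairs of members, some of which share a member, and 4 pairs are described. Groups without overlap were common, with 10 to 17 of the 19 pairs showing none, by comparison. The share among other pairs of genes was not computed. The Hnrnpa1 to Hnrnpa2b1 ratio was -2.96, -3.20 and -3.17 in unstimulated, -1.88, -1.73 and -1.77 in CD3, 0.07, 0.37 and -0.25 in CD3_CD28, and -2.12, -1.13 and -1.69 in CD3_CD28_ICOS. It was lowest in fresh cells and highest in CD3_CD28, with overlap between CD3 and CD3_CD28_ICOS alone. The Hnrnpll to Hnrnpl ratio had mean values of -3.39, -2.91, -2.21 and -2.73 in the same order of groups, again overlapping only between CD3 and CD3_CD28_ICOS. The Srsf1 to Srsf9 ratio was 0.64, 0.66 and 1.31 in CD3_CD28 and at least 1.77 in every other library. The Srsf4 to Srsf6 ratio was 0.81, 1.60 and 0.69 in CD3_CD28 and below 0 in every other library.

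**Figure D4:**
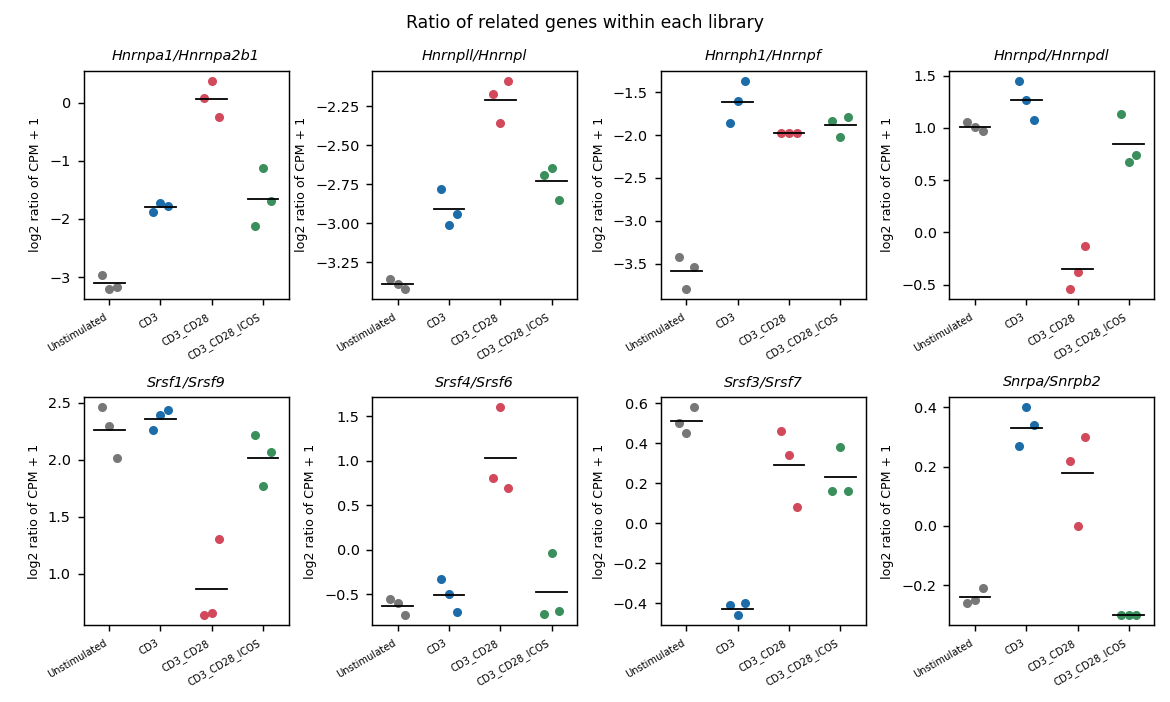
The log2 ratio of CPM + 1 of 8 pairs of related members in each library (points, in replicate order) with group means (lines). The Hnrnpa1 to Hnrnpa2b1 ratio is near 0 in CD3_CD28 and below -1 in all other libraries, and the Srsf4 to Srsf6 ratio is above 0 in CD3_CD28 only.

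Sm and snRNP genes differed among themselves. Snrpd1, a protein of the Sm ring (chromosome 18, 10617775 to 10642079, plus strand), stood at 13.3, 16.5 and 12.9 CPM in unstimulated, 47.1, 46.5 and 42.1 in CD3, 20.8, 24.8 and 26.9 in CD3_CD28, and 28.0, 21.3 and 19.6 in CD3_CD28_ICOS. It was lowest in fresh cells, highest in CD3, and overlapped between the other 2 groups. It rose by 1.61 ± 0.14 in CD3 (limma adjusted p = 2.69e-07) and fell by 0.89 ± 0.14 from CD3 to CD3_CD28 (adjusted p = 1.49e-04).

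Snrpd3, of the same ring (chromosome 10, 75517551 to 75537381, plus strand), stood at 102, 117 and 122.5 CPM in unstimulated, 106, 107 and 106 in CD3, 49.6, 52.4 and 65.7 in CD3_CD28, and 71.7, 49.9 and 53.9 in CD3_CD28_ICOS. Unstimulated and CD3 overlapped, and both groups with anti-CD28 lay below them. The changes against unstimulated were -1.02 ± 0.13 in CD3_CD28 (limma adjusted p = 9.82e-06) and -0.96 ± 0.13 in CD3_CD28_ICOS (adjusted p = 3.45e-05). Snrpd2, also of the ring, was instead 0.85 ± 0.14 above unstimulated in CD3_CD28 (adjusted p = 8.61e-05) and 0.27 ± 0.14 in CD3_CD28_ICOS, which did not pass (adjusted p = 0.112). Snrpb, which encodes a further ring protein, fell in CD3_CD28 against CD3 by 0.80 ± 0.15 (adjusted p = 3.72e-04).

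Of the proteins particular to single snRNPs, Snrpa1 of the U2 snRNP (chromosome 7, 66059003 to 66074587, plus strand) stood at 33.4, 38.6 and 37.8 CPM in unstimulated, 88.9, 85.1 and 80.5 in CD3, 61.1, 57.6 and 70.2 in CD3_CD28, and 43.0, 30.1 and 32.9 in CD3_CD28_ICOS. CD3_CD28 lay between CD3 and the other groups, and CD3_CD28_ICOS overlapped with unstimulated. It rose by 1.19 ± 0.12 in CD3 (limma adjusted p = 1.29e-06) and fell by 0.83 ± 0.12 from CD3_CD28 to CD3_CD28_ICOS (adjusted p = 6.22e-05). Snrpa of the U1 snRNP had mean levels of 30.2 ± 0.664, 68.9 ± 3.31, 51.2 ± 1.72 and 39.9 ± 3.75 CPM in unstimulated, CD3, CD3_CD28 and CD3_CD28_ICOS, with no overlap between any groups. Snrpb2 of the U2 snRNP rose by 0.59 ± 0.09 in CD3 (adjusted p = 6.39e-05) and did not pass between CD3_CD28_ICOS and CD3_CD28 (adjusted p = 0.267).

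Subunits of SF3B and SF3A, which contact the branch site region, moved unequally. Sf3b3 (chromosome 8, 110810239 to 110846787, minus strand) stood at 330, 311 and 286 CPM in unstimulated, 393, 410 and 422.5 in CD3, 169, 193 and 239 in CD3_CD28, and 350, 208 and 267 in CD3_CD28_ICOS. CD3 lay above all others and CD3_CD28 below unstimulated, while CD3_CD28_ICOS overlapped with CD3_CD28 and with unstimulated. It fell by 1.04 ± 0.16 from CD3 to CD3_CD28 (limma adjusted p = 1.25e-04).

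Sf3a1, a subunit of the SF3A complex, stood at 183, 172 and 184 CPM in unstimulated, 276, 273 and 279 in CD3, 244.5, 286 and 250 in CD3_CD28, and 244.5, 235 and 213.5 in CD3_CD28_ICOS. It was above unstimulated in all 9 stimulated libraries, and CD3_CD28 did not pass against CD3 (-0.09 ± 0.08, limma adjusted p = 0.361). Sf3b1, the subunit that binds the branch site, was called in none of the 6 comparisons by limma. Its CD3_CD28 libraries alone spread from 513 to 782 CPM.

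The U2AF subunits U2af2 and U2af1 differed in course against fresh cells, while both were called lower in CD3_CD28 and in CD3_CD28_ICOS than in CD3. U2af2, the large subunit, which binds the polypyrimidine tract (chromosome 7, 5062143 to 5079938, plus strand), stood at 162.5, 167 and 179 CPM in unstimulated, 153, 179 and 171 in CD3, 74.5, 89.5 and 95.3 in CD3_CD28, and 139, 94.6 and 110.5 in CD3_CD28_ICOS. The first 2 groups overlapped and lay above the other 2. It fell by 0.95 ± 0.13 from CD3 to CD3_CD28 (limma adjusted p = 3.79e-05). U2af1, the small subunit, which reads the AG at the intron end, stood at 8.68, 7.34 and 10.99 CPM in unstimulated and 11.4, 14.6 and 14.2 in CD3, groups that did not overlap. Its level was 7.24, 9.52 and 8.77 CPM in CD3_CD28, and 10.0, 5.72 and 7.545 in CD3_CD28_ICOS. It rose in CD3 (log2 fold change 0.54 ± 0.19, adjusted p = 0.0245) and fell by 0.60 ± 0.19 from CD3 to CD3_CD28 (adjusted p = 0.0156). Each of these U2af1 calls held in 17 of 23 settings. Outside CD3, only Unstimulated replicate 3 reached 10 CPM, so U2af1 was tested only through the group where it was high. Its calls against CD3 are therefore a description and no independent support.

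Other parts of the splicing machinery, none of them members, were counted for CD3_CD28 against CD3, where 45.7% of all genes were lower. U1-associated proteins fell in 6 of 8 tested genes, among them Tia1, an RNA-binding protein that helps U1 recruitment (-2.40 ± 0.23), and Luc7l3 (-1.21 ± 0.14). Proteins of the tri-snRNP and U5 fell in 12 of 17, led by Eftud2, the U5 GTPase (-0.94 ± 0.13), and those of the Prp19 complex and the catalytic steps in 19 of 27, with Slu7 alone called higher. SR-related coactivators fell in 12 of 18, and other splicing regulators in 19 of 27 with 4 higher, among the lower ones Tardbp (-1.55 ± 0.14) and Cirbp, a cold-inducible RNA-binding protein (-1.55 ± 0.19). Exon junction complex genes fell in 5 of 8, LSm genes in 5 of 11 with 2 higher, snRNP assembly factors in 8 of 17 with 2 higher, kinases and phosphatases of SR proteins in 4 of 11 with 1 higher, and minor spliceosome genes in 4 of 12 with 1 higher. Medians ran from -0.86 for the U1 list to -0.02 for the minor spliceosome, beside -0.24 for all genes.

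In CD3 against unstimulated, where 43.6% of all genes were higher, snRNP assembly factors rose in 13 of 17 genes and fell in 0. Gemin8, a subunit of the SMN complex, which loads Sm rings, rose by 2.82 ± 0.13 (limma adjusted p = 6.16e-10). Kinases and phosphatases of SR proteins were instead higher in 3 and lower in 4 of 11. In CD3_CD28_ICOS against CD3_CD28, snRNP assembly factors were higher in 1 and lower in 7 of 17, with log2 fold changes of -1.37 ± 0.13 for Gemin8 and -1.06 ± 0.12 for Snupn, which carries snRNPs into the nucleus. SR-related coactivators were higher in 10 and lower in 1 of 18 there, and U1-associated proteins higher in 5 and lower in 0 of 8, beside 38.5% and 24.5% of all genes.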

How the data were processed

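RNA-seq values of 12 libraries were analysed. The authors deposited CPM values, reads per 1e6 assigned reads, with 1e-04 added to each cell, as the values themselves show; the offset was removed. A table that the authors deposited gives p-values with false discovery rates and log2 ratios, per the file headers; its calls were only counted. The submitters' processing notes name Partek 10, DESeq2 and mm10, while aligner, counting tool, annotation and use of strand were not given in the sources used here. CPM carries no length correction, so levels were not compared between genes. Low values fell on whole multiples of 1 read in only 76.4 to 81.4% of cases, so no count test was run.

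Genes that reached 10 CPM in at least 3 libraries were tested on log2(CPM + 1) with limma 3.58.1 in R 4.3.3, with a trend, robust estimation and 1 mean per group over all 12 libraries. Tests were two-sided, and p-values were adjusted by the Benjamini-Hochberg method over the 9826 genes of each comparison, with a threshold of 0.05. The fit was tested on simulated data. Members and gene lists were chosen with earlier results of these data known. Members could all be named. Full values were given for those with the largest called changes in each class and comparison and for a set list. Outside this choice, Hnrnpf was described beside Hnrnph1, and some statistics were given for Hnrnpa0, Hnrnpa3, Srsf10 and Snrpb2. Up to 4 called genes in each direction could be given from each other list. Alternatives covered the pseudocount, filter, scaling, model options, a replicate block and each left-out library. For 55 members the deposited starts equalled those of GENCODE and the deposited ends lay 1 base past them, so ends are printed 1 base lower. Srsf3-ps had no GENCODE match. Coordinates are 1-based. A result on 1 marker gene is left out.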

Additional observations from a re-analysis of the deposited data

How the results depend on the processing

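No member of the set list, or with the largest called changes in a class and comparison, reversed its direction where called. The other members, Hnrnpf among them, are not covered by this statement. Counts of members were recomputed under each alternative, and those not printed here were within 1.5 times the main count. Members lower in CD3 against unstimulated, 1 in the main analysis, were 2 without a filter, 2 with a filter of 1 CPM, 2 with quantile normalization and 4 with median-of-ratios factors. Members lower in CD3_CD28_ICOS against unstimulated, 9, were 14 with quantile normalization. Members higher in CD3_CD28 against CD3, 1, were 2 with the 1 CPM filter, 2 with median-of-ratios factors, 0 with only the libraries compared and 0 without the trend and robust options. In CD3_CD28_ICOS against CD3_CD28, 27 higher and 5 lower became 15 and 8 with median-of-ratios factors. The cause was not tested.

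Leaving out 1 library at a time gave 29 to 35 higher and 1 to 1 lower in CD3 against unstimulated, 10 to 13 and 26 to 28 in CD3_CD28 against unstimulated, 10 to 13 and 6 to 14 in CD3_CD28_ICOS against unstimulated, 0 to 1 and 41 to 45 in CD3_CD28 against CD3, 18 to 30 and 5 to 6 in CD3_CD28_ICOS against CD3_CD28, 0 to 0 and 27 to 39 in CD3_CD28_ICOS against CD3, and 41 to 49 members in the F test. The Hnrnpc call that makes up the 1 higher member in CD3_CD28 against CD3 was lost without CD3 replicate 2 or 3, CD3_CD28 replicate 2 or 3, or CD3_CD28_ICOS replicate 3. An added alternative, chosen after seeing the data, left out Unstimulated replicate 3 and CD3_CD28 replicate 1 together and gave 18 higher in CD3_CD28_ICOS against CD3_CD28. In CD3_CD28 against unstimulated it gave 13 higher and 22 lower members, against 35.7% and 36.4% of all genes. The main analysis had 12 and 27 there. The median log2 fold change of the members went from -0.34 to -0.19, and that of all genes from -0.04 to -0.01.

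Deviations of same-numbered libraries correlated at -0.10 to 0.41. Differently numbered libraries were not compared, so this range cannot show whether the numbers pair the libraries. The main fit did not pair them. With the replicate number as a block, the counts were 33 higher and 1 lower, 11 and 27, 12 and 8, 1 and 43, 26 and 5, and 0 and 36 in the order above, and 47 in the F test. Tested members needed 10 CPM in only 3 libraries, so low ones such as U2af1 and Snrpc lay below it in some, and Srsf12 and Snrpg were not tested. U2af1 and Snrpc passed this filter only through the CD3 libraries. Their calls and positions that involve CD3 are therefore no independent support for high levels there.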
